A study of Mus musculus with 6 samples.

Results

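Molecular motors of the kinesin and dynein families, with the dynactin complex that dynein needs, were followed in bulk RNA sequencing of mouse prefrontal cortex. The genes were chosen by symbol: kinesin heavy chains and other Kif genes, kinesin light chains (Klc), dynein heavy, intermediate and light intermediate chains (Dync) and dynactin subunits (Dctn), leaving out pseudogenes and opposite-strand entries. Of 54134 annotated entries, 60 carried such a symbol and 57 of them had at least 10 reads in at least 2 libraries. These 57 were 40 Kif genes, 4 Klc genes, 7 Dync genes and 6 Dctn genes. Kif1bp, among the Kif entries, encodes a protein that binds kinesins and is not itself a motor. Kif28, Kif12 and Kif2b missed the read minimum: Kif28 had 2 to 10 reads per library, and Kif12 and Kif2b had 0, which allows a level of up to 0.105 to 0.212 CPM (reads scaled to library depth, as edgeR's cpm gives them) depending on the library.

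The libraries came from 3 groups of mice aged 6 to 8 weeks, with 2 libraries each. The first group was heterozygous for a Shank3 allele without its C-terminal part (Shank3 +/∆C) and received GSK-LSD1, a small-molecule inhibitor of the histone demethylase LSD1 (treated mutants below). The second carried the same allele and received vehicle (vehicle mutants), and the third was WT (C57BL/6 x C3H) given vehicle (wild type). Libraries held 14133834 to 28646960 assigned reads, of which the 57 motor genes took 1.14% and 1.13% in treated mutants, 1.19% and 1.19% in vehicle mutants, and 1.25% and 1.20% in wild type. Shank3 itself, counted over the whole gene, stood at 159 and 148 CPM in treated mutants, 146 and 174 in vehicle mutants, and 153 and 160 in wild type, so the gene-level count does not separate the genotypes. The cortical neuron marker Slc17a7 was abundant in every library (1156 to 1923 CPM). In bulk tissue, fewer cells of a type and less RNA per cell cannot be told apart.

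Kinesins are motors that walk along microtubules, most of them toward the plus end, which in axons points away from the cell body. Cytoplasmic dynein moves in the opposite direction and needs dynactin to run over long distances. In neurons these motors carry vesicles, mitochondria and receptors between the cell body and distant axons and dendrites, while other kinesins build cilia or the mitotic spindle.

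In all, 4 motor genes passed the threshold in a comparison: Kif5a and Kif13a were higher, and Dync1h1 lower, in vehicle mutants than in wild type, and Kif3c was lower in treated mutants than in wild type. Of all genes tested, 1.27% were called in the first of these comparisons and 2.62% in the other. The calls were not stable: those of Kif5a and Kif3c were lost in 5 of 18 alternative fits, and those of Kif13a and Dync1h1 in 9. RefSeq (GRCm38.p6) gave a window of 250 bases upstream of the start for 3 of these 4 genes, shown here because they are the promoters of the genes that were called. They read 5′ to 3′ on the gene's strand, and capitals mark the GC box GGGCGG or its reverse complement CCGCCC.
Dync1h1 (chr12:110601145-110601394, plus strand): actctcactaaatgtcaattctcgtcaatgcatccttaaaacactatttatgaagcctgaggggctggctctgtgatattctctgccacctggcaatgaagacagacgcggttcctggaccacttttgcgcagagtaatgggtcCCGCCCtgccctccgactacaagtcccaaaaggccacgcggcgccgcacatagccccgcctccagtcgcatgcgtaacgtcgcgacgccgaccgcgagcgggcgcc
Kif13a (chr13:46929719-46929968, minus strand): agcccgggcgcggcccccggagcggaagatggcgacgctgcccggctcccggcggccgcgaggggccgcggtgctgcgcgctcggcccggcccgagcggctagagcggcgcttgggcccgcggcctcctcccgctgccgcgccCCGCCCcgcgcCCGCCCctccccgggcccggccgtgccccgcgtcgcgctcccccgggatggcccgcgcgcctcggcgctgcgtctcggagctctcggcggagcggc
Kif3c (chr12:3364882-3365131, plus strand): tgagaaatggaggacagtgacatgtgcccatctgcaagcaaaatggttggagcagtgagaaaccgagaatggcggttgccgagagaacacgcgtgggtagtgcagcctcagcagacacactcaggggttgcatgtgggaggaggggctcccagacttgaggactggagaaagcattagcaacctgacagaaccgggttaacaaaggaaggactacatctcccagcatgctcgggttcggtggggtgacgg
The Kif13a window is the richest in G and C (85.6%, against 58.0% for Dync1h1 and 55.6% for Kif3c). The Dync1h1 window carries 1 GC box and the Kif13a window 2, and the Kif3c window has no match to any motif searched. In GENCODE M21 the Dync1h1 window lies within Gm35558, annotated on the other strand (29 to 88 reads per library). The Kif13a window runs into the first exon of a noncoding Kif13a transcript, and the Kif3c window touches no annotated transcript. Across the 43 motor genes with a RefSeq window (49 windows), searched on both strands from 250 bases before to 50 after the start, 63.3% of windows held a GC box, against 35.7% of all 32851 windows.

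A further sequence recurred in windows of motor genes: the cAMP response element TGACGTCA, a palindrome, which was found in windows of 5 of the 43 genes. It stood in 10.2% of their windows, against 1.79% of all windows. The 5 sites are given below with 10 bases on each side and the element in capitals.
Kif5c (chr2:49619250-49619277, plus strand): atctctgcagTGACGTCAccgtgccgag
Kif18a (chr2:109280758-109280785, plus strand): tctgacgtgcTGACGTCAtccgaacggc
Dctn3 (chr4:41723227-41723254, minus strand): gcctaaacagTGACGTCActtcctacaa
Kif17 (chr4:138262155-138262182, plus strand): ttccgtcctgTGACGTCAcggaggttgc
Klc1 (chr12:111758825-111758852, plus strand): cgagggcgggTGACGTCAcggcgcacag
None of these 5 genes passed the threshold in any of the 3 comparisons. The CCAAT box CCAAT was in 44.9% of motor-gene windows and 37.4% of all windows, the E-box CACGTG in 4.08% and 7.15%, and the TATA box TATAAA in 10.2% and 13.6%. The palindromic NRF1 motif was in 2.04% of motor-gene windows and 0.971% of all windows, and TCAGCACC, part of the RE1 element, in 4.08% and 1.65%. A match describes the letters in the window and does not show that a factor binds there.

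Motor genes spanned a wide range of levels, with mean CPM over the 6 libraries between 0.225 and 1886. Of the 57 kept genes, 21 averaged at least 100 CPM and 20 averaged under 10. Dync1h1, Kif1a, Kif1b, Kif5a and Kif5c together made up 62.2% of all motor-gene CPM. Levels of different genes are compared per kilobase of exon, and on that scale Kif1a came first, with 189 CPM per kb. Kif5a followed at 175, Klc1 at 159, Kif5c at 154 and Dync1h1, the longest of these 5 transcripts, at 120 CPM per kb. All 5 are parts of the long-range transport machinery of axons and dendrites. The order differed between groups: per kb, Kif5a was first in vehicle mutants (216, against 177 for Kif1a), while in wild type Kif1a (211), Klc1 (177), Kif5c (153) and Dync1h1 (149) all stood above Kif5a (138).

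**Figure D1:**
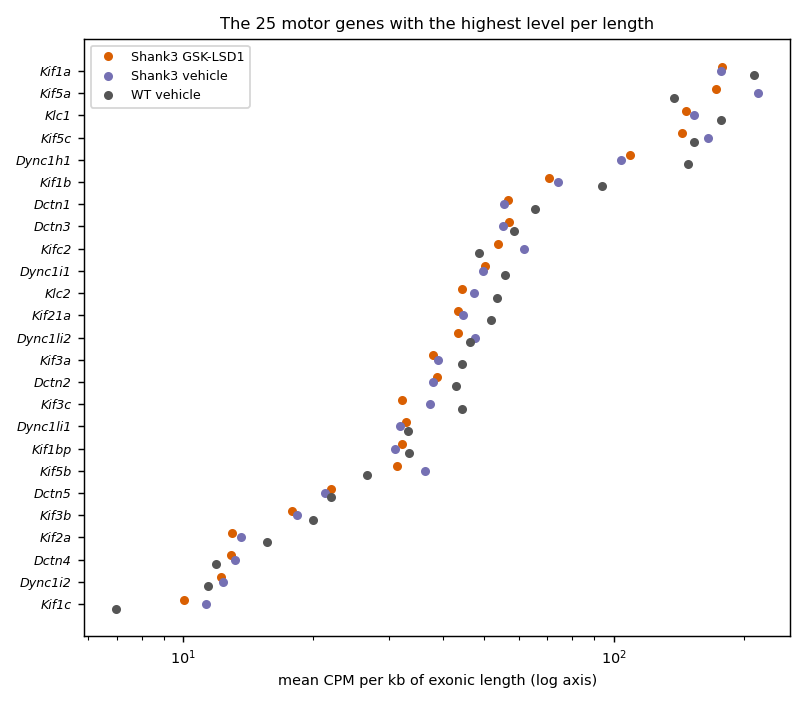
Mean level per kilobase of exonic sequence (CPM per kb, log axis) of the 25 motor genes highest on that scale, with a point per group of 2 libraries, ordered by the mean over the 6 libraries. Kif1a leads at 189 CPM per kb over all libraries, and Kif5a ranges between 216 in vehicle mutants and 138 in wild type.

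The first comparison asked how the Shank3 +/∆C genotype relates to motor-gene expression, with vehicle-treated mutants set against vehicle-treated wild type. Kif5a, the neuron-enriched heavy chain of kinesin-1, rose 1.57-fold in vehicle mutants, and Kif13a, a kinesin-3 motor of recycling endosomes, rose 1.45-fold. Dync1h1, the heavy chain that holds the motor domain of cytoplasmic dynein, fell by 30.3%. Of 56 motor genes tested, 2 were called higher (3.57%) and 1 lower (1.79%). Of all 18705 genes tested, 1.27% were called, 0.278% higher and 0.994% lower. The test was edgeR's quasi-likelihood test with Benjamini-Hochberg adjustment over all genes, a call meaning an adjusted p under 0.05. The motor genes did not move one way: 29 log2 fold changes were positive and 27 negative (48.2% negative, against 47.7% of all genes), with a median of 0.05, against 0.02 over all genes. Before adjustment, 6 had a p under 0.05 on the higher side and 6 on the lower (10.7% and 10.7%, against 5.81% and 8.24% of all genes). Groups did not overlap for 16 genes above wild type and 19 below it, which is 28.6% and 33.9% of the 56, against 23.1% and 23.1% of all genes.

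Kinesin-1 is a tetramer of a pair of heavy chains and a pair of light chains, and 1 of its 3 heavy-chain genes, Kif5a, was called. All 3 lay above both wild types in both vehicle mutants, as did 23.1% of all genes tested. Kif5a (ENSMUSG00000074657, chr10:127225696-127263348, minus strand) had 1441 and 1581 CPM in vehicle mutants, against 866 and 1063 CPM in wild type. Every vehicle mutant lay above both wild types, by a margin larger than the gap between the wild types. Its log2 fold change was 0.65 ± 0.12 (SE, 2 libraries a group) with an adjusted p of 0.0235 by edgeR. The call was lost without wild-type replicate 1 (0.50, adjusted p 0.51 by edgeR), without vehicle-mutant replicate 1 (0.71, adjusted p 0.0867) and without vehicle-mutant replicate 2 (0.58, adjusted p 0.194). It also missed without the robust option (adjusted p 0.0531 by edgeR), and in all in 5 of 18 alternatives.

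Kif5b, the heavy chain found in nearly all cell types, had 292 and 290.1 CPM in vehicle mutants, against 199 and 228 CPM in wild type. These groups did not overlap either, but the log2 fold change of 0.45 ± 0.11 (SE) narrowly missed the threshold (adjusted p 0.0522 by edgeR). It passed when only the 4 libraries compared were fitted (adjusted p 0.0261 by edgeR), without either treated-mutant library (0.0208 and 0.0193), with no filter on low counts (0.0117) and with DESeq2 (0.00335). Kif5c, the second neuron-enriched heavy chain, had 1168 and 1197 CPM in vehicle mutants and 1060.1 and 1128 CPM in wild type, a log2 difference of 0.11 ± 0.11 (SE; adjusted p 0.738 by edgeR). The make-up of the heavy-chain pool did not overlap between the groups: Kif5a took 50.7% and 52.6% of the Kif5 reads per exonic base in vehicle mutants, against 41.7% and 44.9% in wild type. Per exonic base, Kif5a exceeded Kif5c 1.26- and 1.35-fold in vehicle mutants, whereas in wild type the ratio was 0.835 and 0.963.

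**Figure D2:**
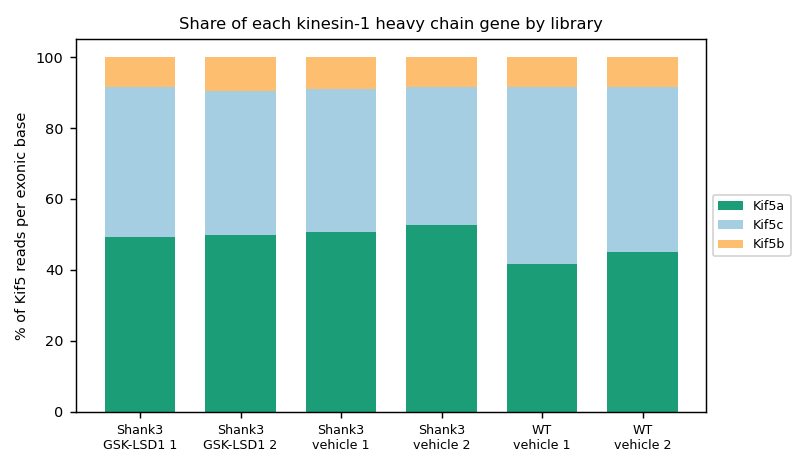
Share of each kinesin-1 heavy chain (Kif5a, Kif5b, Kif5c) in Kif5 reads per exonic base, in percent, as stacked bars for each of the 6 libraries. Kif5a holds 49.2% and 49.8% in treated mutants and 50.7% and 52.6% in vehicle mutants, against 41.7% and 44.9% in wild type.

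The light chains link kinesin-1 to its cargo. In vehicle mutants 3 of 4 had negative log2 fold changes, and 0 of the 4 were called by edgeR. One of the 4 (Klc4, lower) had an unadjusted p under 0.05, and DESeq2 and limma-voom called 0. Klc1 had 653 and 591 CPM in vehicle mutants and 765 and 679 CPM in wild type (log2 fold change -0.21, adjusted p 0.424 by edgeR). Klc2 had 198 and 192 CPM in vehicle mutants and 232 and 209 CPM in wild type (adjusted p 0.481 by edgeR). Both light chains were below wild type in each vehicle mutant while the heavy chains were above it. Klc4 had 10.5 and 13.4 CPM in vehicle mutants, against 17.7 and 16.7 CPM in wild type (-0.52 ± 0.17, SE; adjusted p 0.147 by edgeR).

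Kinesin-3 motors carry synaptic vesicle precursors, dense-core vesicles, mitochondria and endosomes, and their genes did not move together. Kif13a (chr13:46749087-46929867, minus strand) had 33.0 and 33.2 CPM in vehicle mutants, against 22.0 and 23.5 CPM in wild type. The groups were far apart relative to their replicates, with a log2 fold change of 0.54 ± 0.12 (SE) and an adjusted p of 0.0415 by edgeR. This call was lost when any one of the 4 libraries compared was left out (adjusted p 0.0706 to 0.497 by edgeR), and in 9 of 18 alternatives in all, among them limma-voom (adjusted p 0.0573), scaling by library size (0.0579) and the fit without the robust option (0.0649). Kif1c, a motor of dense-core vesicles, had 76.9 and 87.4 CPM in vehicle mutants and 40.9 and 60.8 CPM in wild type. Its log2 fold change was as large as that of Kif5a (0.68 ± 0.17, SE), but the wild types lay 1.49-fold apart and the adjusted p was 0.103 by edgeR. It passed with no filter on low counts (adjusted p 1.27e-05 by edgeR), with DESeq2 (0.00358), with only the 4 libraries compared (0.0445), without either treated-mutant library (0.0373 and 0.0371) and without wild-type replicate 2 (log2 fold change 1.00, adjusted p 0.00275). The abundant Kif1a and Kif1b, motors of synaptic vesicle precursors, pointed the other way. Kif1b had 1347 and 1256 CPM in vehicle mutants and 1748 and 1556 CPM in wild type (-0.34 ± 0.12, SE; adjusted p 0.167 by edgeR), and passed with DESeq2 (adjusted p 0.0156). Kif1a had 1686 and 1612 CPM in vehicle mutants and 2070.0 and 1871 CPM in wild type (-0.26 ± 0.12, SE; adjusted p 0.323 by edgeR). In both genes each vehicle mutant was below each wild type.

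Cytoplasmic dynein-1 is built around a pair of Dync1h1 chains, with intermediate chains (Dync1i1, Dync1i2) and light intermediate chains (Dync1li1, Dync1li2) on their tails. Dync1h1 (chr12:110601452-110666945, plus strand) had 1747 and 1496 CPM in vehicle mutants, against 2463 and 2190.5 CPM in wild type. The groups did not overlap, and the log2 fold change was -0.52 ± 0.12 (SE; adjusted p 0.0485 by edgeR). The call was lost when any one of the 4 libraries was left out (log2 fold changes -0.64 to -0.41, adjusted p 0.0677 to 0.586 by edgeR). It was lost as well after correction of each library for exonic length and GC content (-0.34, adjusted p 0.236 by edgeR), with upper quartile scaling (0.061), with scaling by library size (0.0797) and without the robust option (0.0723), and in all in 9 of 18 alternatives. Dync1h1 has 15.658 kb of exon, against a median of 3.79 kb over all tested genes. Genes called lower in vehicle mutants had a median of 7.79 kb of exon. Among the motor genes themselves, the log2 fold change showed little rank correlation with exonic length (Spearman's rho 0.02 across 56 genes that share their libraries), against -0.155 across the 18454 tested genes with a known length. The heavy chain was the 1 dynein-1 subunit called, and the other 4 chains had log2 fold changes between -0.17 and 0.12. Dync1i1 had 191 and 163 CPM in vehicle mutants and 205 and 195 CPM in wild type (-0.17 ± 0.12, SE; adjusted p 0.576 by edgeR). Dync1i2 had 103 and 102 CPM in vehicle mutants and 85.8 and 103 CPM in wild type (0.12 ± 0.11, SE; adjusted p 0.712 by edgeR), with overlapping groups. Per kb, Dync1h1 stood at 104 CPM in vehicle mutants and 149 CPM in wild type.

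Dynactin bridges dynein to cargo and microtubules, and 0 of its 6 subunits were called in this comparison by edgeR, DESeq2 or limma-voom. Dctn1, the subunit that grips the microtubule, was the 1 with an unadjusted p under 0.05. It had 363 and 360 CPM in vehicle mutants and 462 and 389 CPM in wild type (log2 fold change -0.24, adjusted p 0.354 by edgeR). Dctn2, whose product holds the dynactin shoulder together, lies beside Kif5a on chromosome 10 (chr10:127266368-127281950). It had 188 and 177 CPM in vehicle mutants and 217 and 196 CPM in wild type (-0.18, adjusted p 0.487 by edgeR), lower where its neighbour Kif5a was higher. The remaining 4 subunits had log2 fold changes between -0.08 and 0.14.

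Kinesin-2 motors, which work in cilia and in axonal and dendritic transport, had 0 of 4 genes called by edgeR, DESeq2 or limma-voom (1 lower at an unadjusted p under 0.05, Kif3c). All 4 lay below both wild types in both vehicle mutants, as did 23.1% of all genes and 33.9% of the motor genes. Kif3a had 134 and 145 CPM in vehicle mutants and 157 and 162 CPM in wild type (-0.19, adjusted p 0.532 by edgeR). Kif17, a dendritic motor of NMDA receptor vesicles, had 17.1 and 20.6 CPM in vehicle mutants and 25.5 and 26.7 CPM in wild type (-0.47 ± 0.39, SE; adjusted p 0.704 by edgeR). Kifc2, a neuronal kinesin-14, was on the other side, with 214 and 274 CPM in vehicle mutants and 198 and 184 CPM in wild type (0.35 ± 0.13, SE; adjusted p 0.2 by edgeR). Kif2a, a kinesin-13 that takes microtubule ends apart, had 91.9 and 81.7 CPM in vehicle mutants and 98.0 and 102 CPM in wild type (-0.20, adjusted p 0.413 by edgeR). Kif21b, a kinesin-4 that acts on microtubule growth, had overlapping groups, with 79.0 and 90.1 CPM in vehicle mutants and 119 and 86.5 CPM in wild type.

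**Figure D3:**
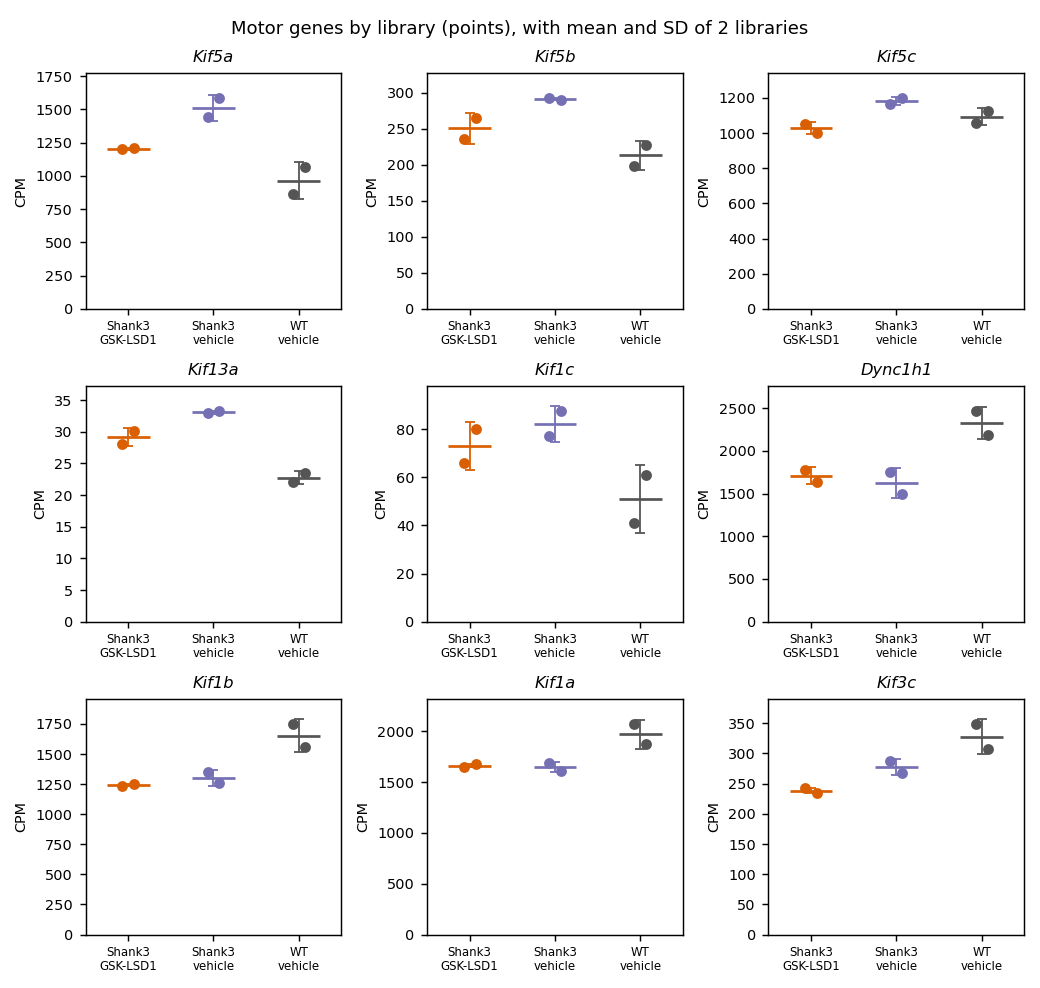
Level of 9 motor genes in each library (CPM, each panel with its own axis starting at 0), with treated mutants, vehicle mutants and wild type in that order; points are libraries and lines the mean and SD of 2. Kif5a reaches 1441 and 1581 CPM in vehicle mutants, while Dync1h1 is at 2463 and 2190.5 CPM in wild type and at 1496 to 1778 CPM in the 4 mutant libraries.

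The second comparison asked what GSK-LSD1 changed in mutants. By edgeR, 0 of the 56 motor genes were called in treated against vehicle mutants, against 0.107% of all genes (0.102% higher and 0.00535% lower). DESeq2 and limma-voom also called 0. At an unadjusted p under 0.05, 3 motor genes were lower (5.36%, against 2.52% of all genes) and 0 higher (against 3.18%), where 5.7% of all genes passed in either direction. Of the 56 log2 fold changes 31 were below 0 (55.4%, against 50.1% of all genes), with a median of -0.03, against 0.00 over all genes. Groups did not overlap for 4 genes above and 11 below (7.14% and 19.6% of the 56, against 17% and 16.6% of all genes).

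The 3 genes with an unadjusted p under 0.05 were Kif5a, Kif11 and Kif15. Kif5a had 1199 and 1206 CPM in treated mutants, against 1441 and 1581 CPM in vehicle mutants (log2 fold change -0.33 ± 0.12, SE; adjusted p 0.761 by edgeR). The treated mutants lay between the vehicle mutants and the wild types, and overlapped with neither. This comparison uses the same vehicle-mutant libraries as the first, in which Kif5a was called higher. A lower value in treated mutants is thus no independent result. Kif5b and Kif5c were also below vehicle mutants in both treated mutants, as were 16.6% of all genes. Kif5b had 236 and 265 CPM there and Kif5c 1053 and 1003 CPM. The log2 fold changes of the 3 heavy chains lay between -0.33 and -0.20, and 0 of them were called. The Kif5a share of Kif5 reads per exonic base was 49.2% and 49.8% in treated mutants, against 50.7% and 52.6% in vehicle mutants.

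Kif11 and Kif15, motors that push spindle poles apart in dividing cells, were scarce in this tissue. Kif11 had 1.44 and 1.57 CPM (34 and 23 reads) in treated mutants, against 3.45 and 2.81 CPM (75 and 62 reads) in vehicle mutants, a log2 fold change of -1.06 ± 0.35 (SE; adjusted p 0.584 by edgeR). Kif15 had 7 and 6 reads in treated mutants, against 23 and 20 reads in vehicle mutants (adjusted p 0.839 by edgeR). Kif2c, a mitotic kinesin-13, was kept by the read minimum but was the 1 kept gene too low to test. It had 0 and 2 reads in treated mutants, 10 and 12 reads in vehicle mutants and 2 and 2 reads in wild type. Only the vehicle-mutant libraries reached the read minimum. Its higher count there was thus a condition for keeping the gene and is not a result. The 12 markers of dividing cells summed to 15.3 and 21.1 CPM in treated mutants and 19.3 and 17.1 CPM in vehicle mutants. Of the 11 tested, 0 were called by edgeR and 1 was lower at an unadjusted p under 0.05 (against 2.52% of all genes). Their part in these values was not tested.

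Dync1h1, the gene called lower in vehicle mutants, had overlapping groups, with 1778 and 1639 CPM in treated mutants and 1747 and 1496 CPM in vehicle mutants (0.08 ± 0.12, SE; adjusted p 0.999 by edgeR). A p that misses the threshold does not show equal levels. Dynactin subunits had log2 fold changes between -0.04 and 0.06, and their groups overlapped in 6 of 6. Replicates of most motor genes lay close together, with a median fold between replicates of 1.08 in treated mutants, 1.07 in vehicle mutants and 1.07 in wild type over the 37 genes with at least 10 CPM.

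**Figure D4:**
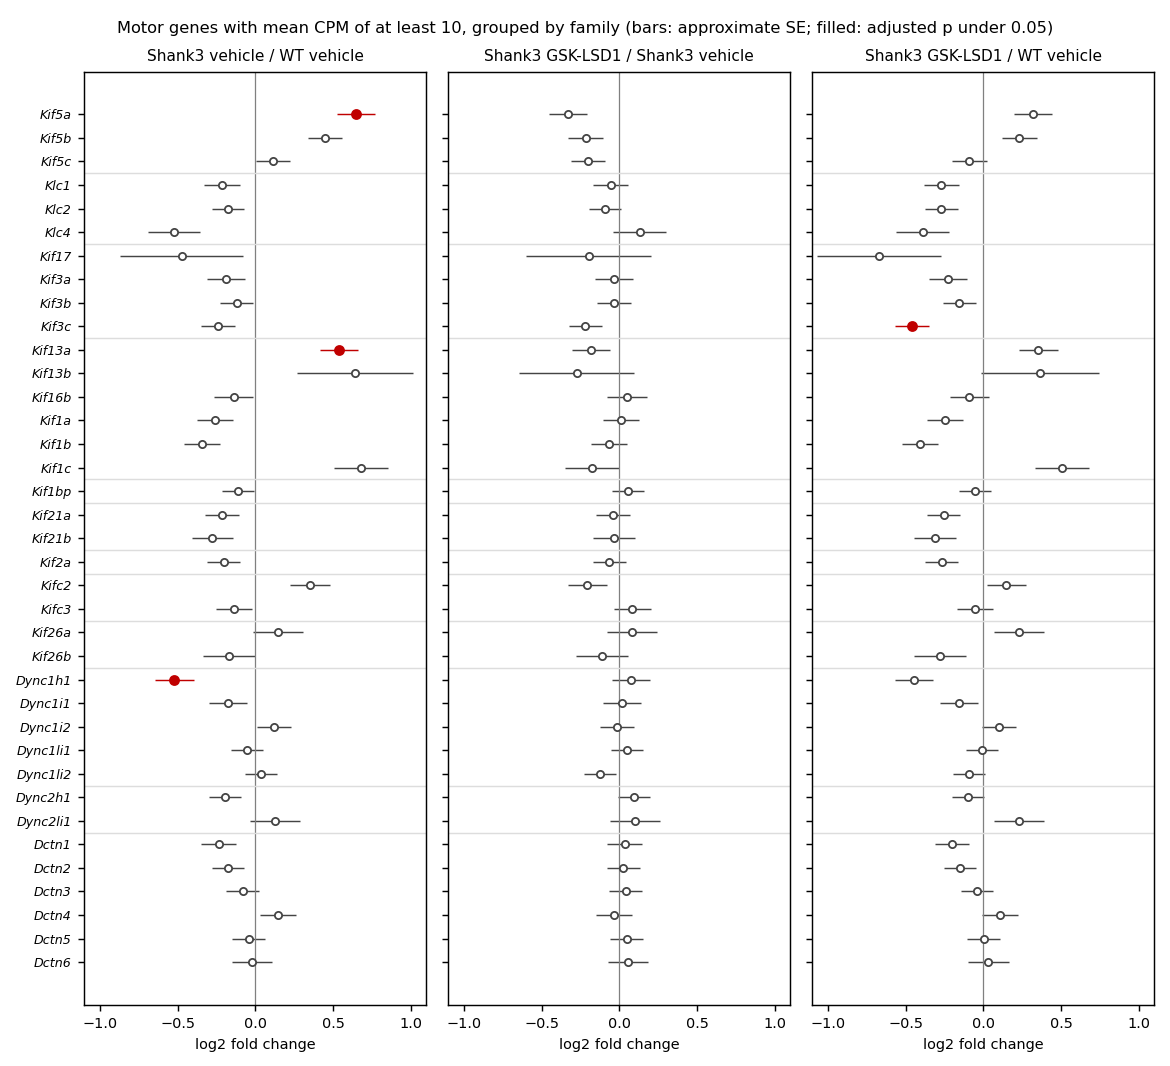
Log2 fold changes of the 37 motor genes averaging at least 10 CPM, with approximate standard errors as bars, in each of the 3 comparisons and grouped by family; filled points passed the threshold. Kif5a (0.65), Kif13a (0.54) and Dync1h1 (-0.52) were called in vehicle mutants against wild type, Kif3c (-0.46) in treated mutants against wild type, and no motor gene in treated against vehicle mutants.

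The third comparison set treated mutants against wild type. It uses the same wild-type libraries as the first, so the lists below do not support each other. Kif3c, the neuron-enriched kinesin-2 heavy chain, fell by 27.2% and was the 1 motor gene called of 56 (1.79%, against 2.62% of all genes, of which 0.636% higher and 1.99% lower). That share is below the background. At an unadjusted p under 0.05, 7 were higher (12.5%, against 7.11% of all genes) and 10 lower (17.9%, against 8.62%). Groups did not overlap for 13 above and 22 below (23.2% and 39.3%, against 23.5% and 22.4% of all genes), and 31 log2 fold changes were below 0 (55.4%, against 47.4%), with a median of -0.05, against 0.02 over all genes.

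Kif3c (chr12:3365132-3406494, plus strand) had 242 and 235 CPM in treated mutants, 287 and 268 CPM in vehicle mutants and 348 and 307 CPM in wild type. The 3 groups did not overlap and followed this order in every library. Treated mutants against wild type gave -0.46 ± 0.11 (SE; adjusted p 0.0303 by edgeR), and vehicle mutants against wild type -0.24 ± 0.11 (SE; adjusted p 0.322 by edgeR). The call was lost without treated-mutant replicate 2 (adjusted p 0.12 by edgeR), without vehicle-mutant replicate 1 (0.0514) and without wild-type replicate 1 (-0.37, 0.42). It also missed with scaling by library size (adjusted p 0.0653 by edgeR) and with only the 4 libraries compared (0.0548), 5 of 18 alternatives in all. A share of 35.3% of the exonic bases of Kif3c overlaps 1110002L01Rik on the other strand. The libraries were strand-specific, but no source used here gives whether the counting used strand. Without it, reads of the pair cannot be told apart; 1110002L01Rik itself had 48 to 84 reads per library.

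The other 3 kinesin-2 genes were not called (adjusted p 0.395 to 0.537 by edgeR), and lay below both wild types in both treated mutants, as did 22.4% of all genes. Kif17 had 22.6 and 9.61 CPM in treated mutants, 2.35-fold apart, against 25.5 and 26.7 CPM in wild type (-0.67 ± 0.40, SE; adjusted p 0.523 by edgeR). Without treated-mutant replicate 1 its log2 fold change was -1.45 (adjusted p 0.000427 by edgeR), so 1 library decides this value. Kif3a had 155 and 117 CPM in treated mutants, against 157 and 162 CPM in wild type (-0.23, adjusted p 0.395 by edgeR).

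Dync1h1 had 1778 and 1639 CPM in treated mutants, against 2463 and 2190.5 CPM in wild type, a log2 fold change of -0.45 ± 0.12 (SE; adjusted p 0.0661 by edgeR). Kif1b, at 1235 and 1252 CPM in treated mutants against 1748 and 1556 CPM in wild type, was similar (-0.41 ± 0.12, SE; adjusted p 0.0709 by edgeR). Both lay below wild type in all 4 mutant libraries and both missed the threshold here. With no filter on low counts, Dync1h1 (adjusted p 0.0135 by edgeR) and Kif1b (0.0269) passed, as they did with DESeq2 (0.00214 and 0.00152). Kif1b also passed with the oligodendrocyte covariate (adjusted p 0.0457 by edgeR). Kif5a had 1199 and 1206 CPM in treated mutants, against 866 and 1063 CPM in wild type (0.32 ± 0.12, SE; adjusted p 0.207 by edgeR). Kif13a had 28.2 and 30.2 CPM in treated mutants, against 22.0 and 23.5 CPM in wild type (0.35 ± 0.12, SE; adjusted p 0.156 by edgeR). These 2 motors were above wild type in every mutant library, and in treated mutants below the vehicle-mutant values. Kif5b followed the same order (0.23 ± 0.11, SE; adjusted p 0.317 by edgeR). Kif1c, at 66.0 and 79.9 CPM in treated mutants, was also above wild type in every mutant library (0.51 ± 0.18, SE; adjusted p 0.193 by edgeR). It passed with no filter on low counts (adjusted p 0.00318 by edgeR), the replicate block (0.0284) and DESeq2 (0.0441). Of all genes, 23.5% lay above wild type in both treated mutants. A test of whether the 3 groups share 1 level called Kif5a (adjusted p 0.022) and Dync1h1 (adjusted p 0.0454 by edgeR), 2 of 56 motor genes, against 2.22% of all genes.

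Kif19a and Kif13b varied between libraries of the same group, Kif13b in treated mutants and Kif19a in treated and in vehicle mutants. Kif19a, which limits the length of motile cilia, had 2.54 and 6.27 CPM in treated mutants, 4.92 and 7.98 CPM in vehicle mutants and 2.53 and 2.53 CPM in wild type. Its difference between vehicle mutants and wild type was 1.35 ± 0.39 on the log2 scale (SE, adjusted p 0.132 by edgeR). Among the alternatives in which that difference passed were no filter on low counts (adjusted p 0.000314 by edgeR), the replicate block (0.044) and only the 4 libraries compared (0.0174). Kif13b, a kinesin-3 that was singled out after its values were seen, had 25.8 and 53.3 CPM in treated mutants, 47.0 and 47.7 CPM in vehicle mutants and 27.9 and 32.6 CPM in wild type. Both genes were low in the same treated mutant, replicate 1. The 14 oligodendrocyte markers, all tested, summed to 2605 and 6069 CPM in treated mutants, 6371 and 6438 CPM in vehicle mutants and 2838 and 2559 CPM in wild type, and thus were low in that library too. None of the 14 was at 0 reads in all libraries, and 0 of them were called by edgeR. At an unadjusted p under 0.05, 3 were higher in vehicle mutants than in wild type, against 5.81% of all genes. Their part in the values of Kif19a and Kif13b was not tested. Because Kif13b was chosen on these values, its likeness to the markers is no evidence of a link.

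**Figure D5:**
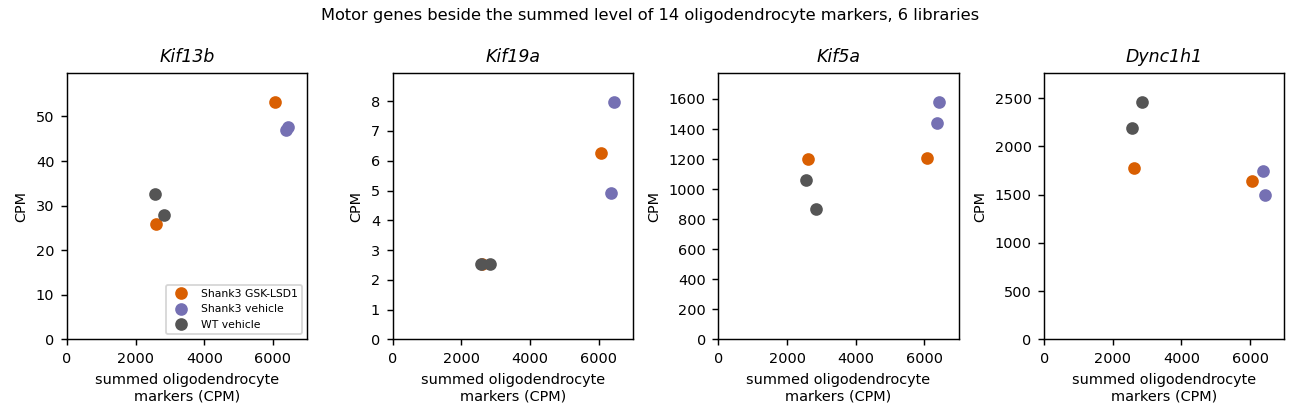
Levels of Kif13b, Kif19a, Kif5a and Dync1h1 (CPM, vertical axes) against the summed CPM of 14 oligodendrocyte markers (horizontal axes), one point per library, coloured by group. Treated-mutant replicate 1 has a marker sum of 2605 CPM, near wild type, with Kif5a at 1199 CPM, above wild type, and Dync1h1 at 1778 CPM, below it, while Kif13b (25.8 CPM) is at its lowest there.

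In the library with few oligodendrocyte transcripts, treated-mutant replicate 1, Kif5a (1199 CPM) and Kif13a (28.2 CPM) were above both wild types and Dync1h1 (1778 CPM) below both. This is 1 library, from a treated mouse, and nothing is concluded from it. With the mean log2 CPM of the markers as a covariate, 0 motor genes were called in vehicle mutants against wild type. The log2 fold changes were then 0.70 for Kif5a (adjusted p 0.0708 by edgeR), 0.47 for Kif13a (0.398) and -0.46 for Dync1h1 (0.305). Other cell types differed as well. The 12 astrocyte markers summed to 5569 and 5657 CPM in treated mutants, 5573 and 5796 CPM in vehicle mutants and 4116 and 5055 CPM in wild type. The 10 excitatory neuron markers summed to 5131 and 4334 CPM in treated mutants, 4966 and 4813 CPM in vehicle mutants and 5792 and 5715 CPM in wild type. The sum was lower in all 4 mutant libraries, although Slc17a6, 1 of the 10, was higher in each of them. In vehicle mutants against wild type, 2 of 12 astrocyte markers were called higher by edgeR, against 0.278% of all genes. Of the 10 excitatory neuron markers, 1 was called lower, against 0.994% of all genes. The covariate takes a residual degree of freedom from the 3 of the main fit, so a call lost there is not by itself a result about oligodendrocytes. Beyond that fit, the part of these cell types in the motor-gene values was not tested.

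Other cilium motors were scarce and variable. Kif7, a kinesin-4 of Hedgehog signalling at the cilium tip, had 2.16 and 2.04 CPM in treated mutants, 1.52 and 1.5 CPM in vehicle mutants and 1.71 and 0.903 CPM in wild type. Kif6 had 1.99 and 4.09 CPM in treated mutants, 1.52 and 2.31 CPM in vehicle mutants and 1.57 and 1.88 CPM in wild type. Kif9, a motor of motile cilia, had 3.01 and 5.52 CPM in treated mutants, 2.39 and 3.36 CPM in vehicle mutants and 2.81 and 4.30 CPM in wild type. Replicates of Kif6 and Kif9 differed about as much as the groups did. Dync2h1, the heavy chain that returns cargo inside cilia, was more abundant and steadier, at 113 and 114 CPM in treated mutants, 109 and 102 CPM in vehicle mutants and 115 and 127 CPM in wild type. The 12 ependymal and motile-cilium markers summed to 40.2 and 51.7 CPM in treated mutants, 36.8 and 37.1 CPM in vehicle mutants and 44.1 and 40.6 CPM in wild type, and their part in these values was not tested. The spindle kinesins, which serve cell division, were low in this tissue of mostly non-dividing cells. Among them, Kif22 had 3.73 and 2.73 CPM in treated mutants, 2.85 and 2.86 CPM in vehicle mutants and 1.85 and 1.84 CPM in wild type (treated mutants against wild type 0.82 ± 0.32, SE; adjusted p 0.216 by edgeR). Klc3, a light chain of low level in cortex, had 1.78 and 2.11 CPM in treated mutants, 0.735 and 1.22 CPM in vehicle mutants and 0.548 and 0.867 CPM in wild type (treated mutants against wild type 1.40 ± 0.50, SE; adjusted p 0.164 by edgeR). A share of 28.1% of the exonic bases of Klc3 overlaps Ercc2, so its reads are uncertain. Kifc1 and Kifc5b are related copies that share 39.8% and 37.4% of their 50-base runs with other genes, mainly each other, so their low counts are uncertain too.

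The partners of the motors were tested from lists of named genes. Of all genes, 0.278% were called higher and 0.994% lower in vehicle mutants against wild type. Before adjustment, 5.81% and 8.24% had a p under 0.05 there. In treated against vehicle mutants 0.102% were called higher and 0.00535% lower, and in treated mutants against wild type 0.636% and 1.99%. Of 38 tested adaptors and cargo linkers, 0 were called in vehicle mutants against wild type by edgeR (2 higher and 8 lower at an unadjusted p under 0.05). Hap1, an adaptor that binds dynactin and kinesin light chain, was the 1 adaptor called in treated against vehicle mutants (log2 fold change 1.26). Hap1 is also 1 of 15 listed markers of hypothalamus, septum and preoptic area, which summed to 739 and 826 CPM in treated mutants, 549 and 454 CPM in vehicle mutants and 505 and 466 CPM in wild type. In treated against vehicle mutants, 3 of the 9 tested were called higher, against 0.102% of all genes. Positive log2 fold changes were seen in 9 of 9 (median 0.71), where 50.1% of all genes had negative ones. Hap1 is itself 1 of the 3 called, and some of these markers were listed with earlier results of these data known. The counts were thus partly fixed by the choice of genes. Gal, Avp, Oxt, Sim1, Nkx2-1 and Calcr, also listed, averaged 0.0424 to 0.204 CPM in treated mutants. The part of the markers in the Hap1 value was not tested. In treated mutants against wild type, 2 adaptors were higher, Hap1 and Rhot2, a mitochondrial anchor of motors (0.52, adjusted p 0.0494 by edgeR), and 1 lower, Arl8a (-0.54), which recruits kinesin to lysosomes. Of 20 dynein light chains and regulators tested, 0 were called in any of the 3 comparisons by edgeR (3 higher and 0 lower in vehicle mutants against wild type at an unadjusted p under 0.05). Among the tracks, 1 of 14 tubulins was lower in vehicle mutants than in wild type, Tubb4a (-0.49, adjusted p 0.0456 by edgeR), and it was the 1 tubulin called lower in treated mutants than in wild type (-0.63, adjusted p 0.0104 by edgeR). Of 38 microtubule-associated proteins, 1 was lower in vehicle mutants than in wild type, Dcx, and 3 were lower in treated mutants than in wild type, Dcx, Mapre2 and Map1b. The median log2 fold change of the microtubule-associated proteins was -0.15 in vehicle mutants and -0.21 in treated mutants against wild type, against 0.02 over all genes in both.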

How the data were processed

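Stranded libraries of total RNA depleted of ribosomal RNA, from 6 prefrontal cortex samples (3 groups, 2 mice each), were counted per gene. The deposited values are raw counts per gene, with no normalization by the authors. Per the submitters' processing notes, the tools named are cutadapt, TopHat2, SAMtools, featureCounts and edgeR, with the builds mm10 and GRCm38. No source used here gives their roles or versions, or whether the counting used strand. Library totals were 14133834 to 28646960 reads. A count of 0 allows up to 3 counts (95% level), which covers counting error only.

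Counts were fitted across all genes with edgeR 4.0.16 in R 4.3.3 (its expression filter, TMM scaling, robust quasi-likelihood fit of 3 groups, 3 residual degrees of freedom, two-sided), and p-values were adjusted by Benjamini-Hochberg over 18705 genes, with a threshold of 0.05. Each standard error is approximate, the size of a log2 fold change over √F. CPM used TMM-scaled totals. The labels give separate mice, so the spread is between animals. In simulated counts with known changes, the fit returned the sizes of the changes with little bias, but more of its calls were false than the threshold allows, in each of the 3 comparisons. Alternatives were other scalings and filters, DESeq2 1.42.0, limma-voom (limma 3.58.1), a fit without the robust option, a replicate block, a length and GC correction, an oligodendrocyte marker covariate, each library left out in turn, only the 4 libraries compared, and a threshold of 0.10. Motor genes were named where they passed the threshold, were among the up to 5 with the smallest unadjusted p in a comparison and direction, or define a neuronal motor complex. Of each partner list, genes past the threshold were named, up to 4. The motor genes, roles, partner lists and cell-type markers were chosen with earlier results of these data known. Coordinates are GENCODE M21 (GRCm38) and promoters RefSeq (GRCm38.p6). Within each group the 2 libraries were distinct (chi-square of their counts 9.07 to 12.0 times its degrees of freedom).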

Additional observations from a re-analysis of the deposited data

How the results depend on the processing

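In vehicle mutants against wild type, 3 motor genes were called. The count was 2 with upper quartile scaling, limma-voom or the length and GC correction, 1 with scaling by library size, 6 with no filter on low counts, 6 with DESeq2, 0 without the robust option, 0 with the oligodendrocyte covariate, 7 with only the 4 libraries compared, and 0 to 7 with each library left out. In treated against vehicle mutants the count was 0, and 0 to 1 with each library left out (Kif13b, lower, without treated-mutant replicate 2). In treated mutants against wild type the count was 1. It was 0 with scaling by library size, 5 with no filter, 4 with DESeq2, 2 with the oligodendrocyte covariate, 0 with only the 4 libraries compared, 3 at an adjusted p under 0.10, and 0 to 5 with each library left out. Over the 3 groups together the count was 2. It was 1 with upper quartile scaling, 1 with scaling by library size, 8 with no filter, 7 with DESeq2, 1 without the robust option, 1 with the oligodendrocyte covariate, 5 at an adjusted p under 0.10, and 0 to 7 with each library left out. The causes of these changes were not tested. No value that was called changed sign under an alternative. With the replicate block, 4, 0 and 2 motor genes were called in the 3 comparisons and 3 over the groups together. In vehicle mutants against wild type Kif13a then missed the threshold (adjusted p 0.0516 by edgeR), while Kif1c (0.0195) and Kif19a (0.044) passed. Same-numbered libraries did not deviate together (correlations of replicate differences 0.08, -0.06 and -0.05). A pairing with a weak effect could look the same, and the labels do not say whether the numbers pair the mice. Motor genes under 1 CPM, 9 of 57, had too few reads for a small change to be detectable at this depth.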
